A study of Mus musculus with 4 samples.

Results

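Connexins are the proteins that build gap junctions, the channels through which ions and small molecules pass directly from cell to cell. The 4 genes described here are the connexins of vessels and heart muscle, Gja1 (connexin 43), Gja4 (connexin 37), Gja5 (connexin 40) and Gjc1 (connexin 45), chosen by symbol from the 32285 genes counted in the mouse series. The series asks what endothelial Ets1, an ETS-family transcription factor, does for cardiomyocyte proliferation and the compact myocardium. Its single-cell RNA-seq holds 2 control and 2 Ets1 eKO libraries of ventricles at embryonic day 14.5, made by droplet capture after trypsin dissociation. Each library pooled 3 embryos on a C57BL/6 background, and the labels name no batch. Control embryos were Tie2Cre; Ets1 fl/+ and eKO embryos Tie2Cre; Ets1 fl/fl, so the controls also carried Cre and 1 floxed allele. Tie2Cre is active in endothelial and blood lineages, and the sexes of the pooled embryos were not recorded.

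In the developing heart, connexin 40 marks arterial endothelium and, in muscle, the trabeculae and the fast conduction system that forms from them. Connexin 43 couples working ventricular myocytes, connexin 37 couples endothelial cells, and connexin 45 is the channel of slowly conducting tissue such as the atrioventricular canal. T-box repressors in the canal are known to keep the genes of the fast channels off there, and Notch signalling together with blood flow is known to act on the arterial ones.

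Depth differed between libraries. Control replicate 1 held 12641 barcodes and 124140739 UMIs (unique molecules), control replicate 2 held 7949 and 76931208, eKO replicate 1 held 10010 and 95131419, and eKO replicate 2 held 14951 and 102872196. The median per barcode was 8630, 8369, 8222 and 5632 UMIs in the same order, so eKO replicate 2 was the shallowest per cell, and results are given with and without it where it changes them. Each pair of libraries shared between 19 and 47 barcode sequences of the 45551 in all.

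Cell types were taken from sums of marker genes per 10000 UMIs of a cell, and no connexin was among the markers. The 38733 cells kept gave 1558 cells of coronary endothelium, 5156 of endocardium, 4622 compact, 2036 trabecular and 442 atrioventricular canal cardiomyocytes, and 7516 of mesenchyme. Another 12224 of 19324 cardiomyocytes passed no threshold for these classes or scored too high for a second class, and stayed unassigned. A compact cell had to score under 16 on trabecular markers, which is below the trabecular threshold of 64. A class made by a threshold is a range: within 25% of their thresholds lay 142 cells of the coronary, 1451 of the compact, 737 of the trabecular and 199 of the canal score. Within coronary endothelium, 56, 31, 46 and 78 cells (control 1, control 2, eKO 1, eKO 2; this order is kept throughout) passed a threshold of 8 on arterial markers, which is 14.0%, 14.4%, 13.6% and 12.9% of the coronary cells, and 200 coronary cells lay near that threshold. Levels are given as CPM, UMIs of the gene scaled to 1000000 UMIs of the summed cells of a class in a library.

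Ets1 itself checks the labels, with the limit that the labels do not state which exons are floxed, and a 3′ tag outside the deleted part would check nothing. In coronary endothelium Ets1 stood at 368, 325, 171 and 125 CPM, and in endocardium at 279, 268, 122 and 93.6 CPM. Both eKO libraries were below both controls in each of these classes. Ets1 fell, by the quasi-likelihood test of edgeR with p-values adjusted by Benjamini-Hochberg, in coronary endothelium (log2 fold change -1.15, SE 0.17, adjusted p 0.0124; without cycling cells -0.95, adjusted p 0.0519) and in endocardium (-1.29, SE 0.14, adjusted p 0.00373). In mesenchyme it stood at 99.1, 87.4, 61.9 and 59.1 CPM, again lower in both eKO libraries, and did not pass the test (adjusted p 0.228 by edgeR). Compact cardiomyocytes held 9.74, 11.3, 12.0 and 11.4 CPM, with the eKO libraries slightly above the controls. Immune cells, of the blood lineages, held 12.8, 14.2, 15.4 and 13.2 CPM, and the groups overlapped.

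The annotation places Gja1 (ENSMUSG00000050953) at chr10:56377330-56402513, Gja4 (ENSMUSG00000050234) at chr4:127311421-127314039, Gja5 (ENSMUSG00000057123) at chr3:96904693-97077416 and Gjc1 (ENSMUSG00000034520) at chr11:102799579-102819700 of mm10. No pair of them lies on 1 chromosome. Because the study removes an ETS factor, the 250 bases before the RefSeq start are shown for the 3 of 4 members that have an entry in the RefSeq promoter table (GRCm38.p6): Gja1 at chr10:56377050-56377299 on the plus strand, Gja4 at chr4:127314040-127314289 on the minus strand and Gja5 at chr3:97032152-97032401 on the plus strand. Gjc1 has none. Capitals mark GGAA, the 4-letter core of ETS sites, or TTCC, its other strand.
Gja1: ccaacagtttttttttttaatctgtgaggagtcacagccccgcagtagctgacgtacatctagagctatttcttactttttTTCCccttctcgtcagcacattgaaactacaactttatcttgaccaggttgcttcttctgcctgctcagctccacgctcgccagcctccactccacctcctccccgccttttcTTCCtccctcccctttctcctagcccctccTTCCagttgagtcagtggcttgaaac
Gja4: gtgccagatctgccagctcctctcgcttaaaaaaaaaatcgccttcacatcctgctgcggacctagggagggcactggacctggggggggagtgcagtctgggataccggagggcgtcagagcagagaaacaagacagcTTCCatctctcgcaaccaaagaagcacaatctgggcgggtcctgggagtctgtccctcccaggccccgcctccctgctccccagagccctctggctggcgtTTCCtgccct
Gja5: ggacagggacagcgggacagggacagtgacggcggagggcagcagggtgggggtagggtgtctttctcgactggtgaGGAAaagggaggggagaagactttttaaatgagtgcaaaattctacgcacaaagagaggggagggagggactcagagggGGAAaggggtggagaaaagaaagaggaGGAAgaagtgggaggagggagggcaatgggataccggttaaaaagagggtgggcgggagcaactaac
The core occurs 3 times for Gja1, 2 times for Gja4 and 3 times for Gja5, and the longer CGGAA occurs on neither strand of any. Of 32851 promoters of this length, 93.4% hold the core, with a median of 3 matches, and 25.2% hold the longer form. A match is a description of the letters and not a binding site.

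The levels of the 4 connexins over the cell classes were as follows. Among classes that share no cells, Gja5 was highest in trabecular cardiomyocytes (97.6 ± 20.8 CPM, mean ± SD, n = 4 libraries). Coronary endothelium (33.9 ± 12.6) and compact cardiomyocytes (9.93 ± 1.96) came next. The arterial-gated part of coronary endothelium stood above the trabecular cells, at 185 ± 76.3 CPM. Epicardial cells (3.72), endocardium (2.59 ± 0.92), canal cardiomyocytes (1.22), mesenchyme (0.813), immune cells (0.421) and smooth muscle marker-high cells (0) followed, and from compact cardiomyocytes downwards neighbours overlapped in their ranges. Gja4 was an endothelial gene: coronary endothelium (109 ± 10.4) stood above endocardium (79.4 ± 9.42), and every other class had at most 2.61 CPM with overlapping ranges.

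Gja1 was also highest in trabecular cardiomyocytes (328 ± 73.4 CPM), followed by coronary endothelium (109 ± 9.62) and compact cardiomyocytes (84.5 ± 9.29). Below these came epicardial cells (61.9 ± 17.5), whose range overlapped that of compact cells, then endocardium (36.2 ± 4.91), mesenchyme (28.2 ± 8.62), smooth muscle marker-high cells (23.6 ± 19.6), immune cells (6.45 ± 3.79) and canal cardiomyocytes (5.59 ± 5.95), overlapping from each to the next. Gjc1 was widespread and highest in canal cardiomyocytes (226 ± 26.2 CPM). Its next levels, in mesenchyme (125 ± 11.5), smooth muscle marker-high cells (113 ± 18.9), compact (101 ± 7.95) and trabecular cardiomyocytes (79.2 ± 8.33), endocardium (71.2 ± 4.62), epicardial cells (64.6 ± 9.80) and coronary endothelium (60.1 ± 8.24), overlapped between neighbours. Immune cells (1.65 ± 1.78) held least of it.

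**Figure D1:**
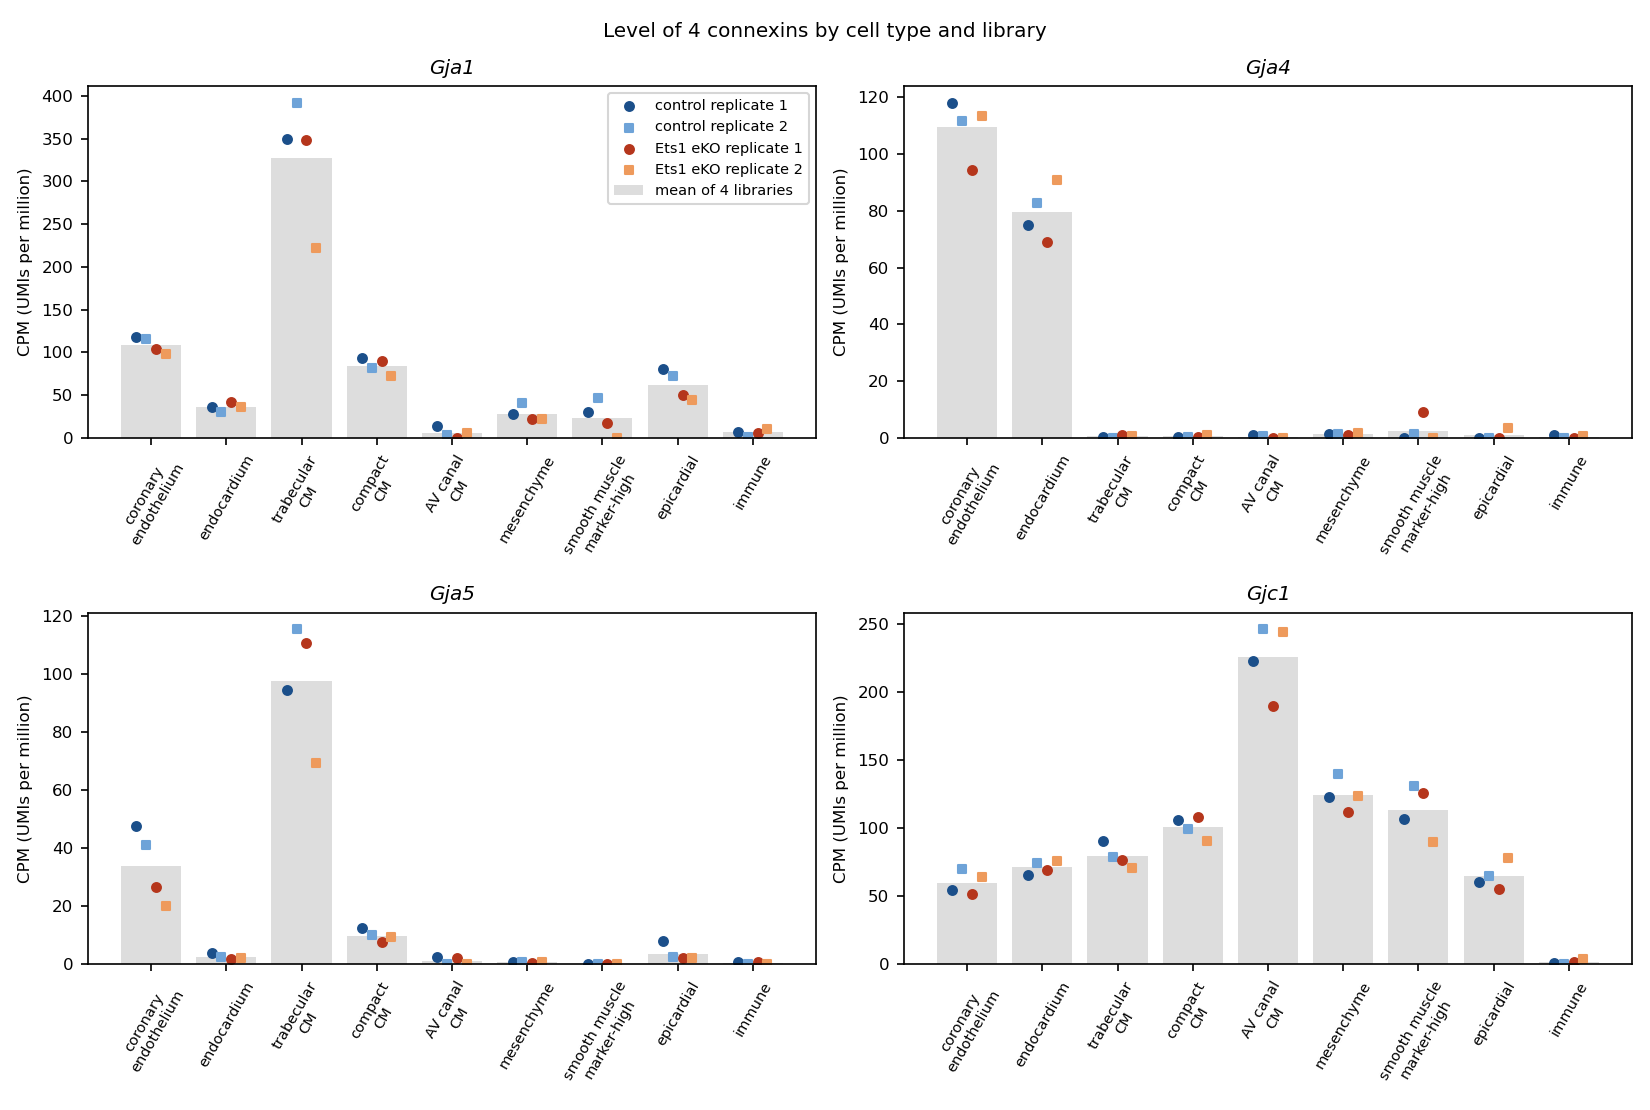
CPM of each connexin (vertical axis, linear, with a scale of its own per gene) in 9 cell classes; points are the 4 libraries and bars their mean. Gja5 and Gja1 peak in trabecular cardiomyocytes, Gja4 in the endothelial classes and Gjc1 in atrioventricular canal cardiomyocytes.

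Coronary endothelium against endocardium asks how the channels of the heart's vessels differ from those of its inner lining. The 3 connexins Gja5, Gja1 and Gja4 were higher in coronary endothelium in all 4 libraries. Gja5 was 3.88 higher on the log2 scale (SE 0.14, adjusted p 1.23e-09), Gja1 1.79 (SE 0.09, adjusted p 1.59e-08) and Gja4 0.67 (SE 0.07, adjusted p 4.72e-06), by the edgeR test with the library as a block. Without cycling cells the differences were larger, at 5.03, 2.11 and 1.71. Gjc1 did not pass (-0.05, SE 0.07, adjusted p 0.521 by edgeR). It passed, lower in coronary cells, with total count scaling (-0.25) and without cycling cells (-0.37). Of all 12610 genes tested between these classes 65.7% were called, so 3 of 4 members is near the background.

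Trabecular against compact cardiomyocytes asks how the inner, conducting layer of the wall differs from the outer layer. Gja5 was 3.34 higher on the log2 scale in trabecular cells (SE 0.11, adjusted p 1.77e-20 by edgeR) and Gja1 2.01 higher (SE 0.07, adjusted p 1.37e-19). Gjc1 was lower by a small amount (-0.26, SE 0.06, adjusted p 0.000821 by edgeR). Gja4 was too low to be fitted. The 3 members tested were all called, where 49.6% of 12685 genes were.

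The atrioventricular canal had the reverse profile of the trabeculae. Canal cardiomyocytes held less Gja1 and less Gja5 than compact cells in every library. Both genes were too low in canal cells to be fitted there and entered this contrast through compact cells. Their fitted differences are therefore not read as measured sizes. Gjc1, the slow channel, was higher by 0.95 on the log2 scale (SE 0.09, adjusted p 1.08e-07 by edgeR). Gja1 was at 13.9, 3.04, 0 and 5.46 CPM in canal cells, where the 0 of eKO 1 allows up to 3.45 CPM. Immune cells held 7.31, 1.58, 6.17 and 10.8 CPM, so the 2 ranges overlapped. Gja5 had 5 UMIs in canal cells (2.60, 0, 2.30 and 0 CPM, where the 0 values allow up to 1.83 and 5.46 CPM). The fitted sizes for Gja1 and Gja5 also depended on single libraries. Gjc1, the 1 member that also passed the filter in canal cells, was called, where 47.2% of 12008 genes were.

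The levels followed the marker score within the cardiomyocytes too, and not just at the thresholds. Over 5 bins of the trabecular marker sum (under 4, 4 to 16, 16 to 64, 64 to 256, and 256 or more per 10000 UMIs), mean Gja5 went through 7.87, 19.5, 46.1, 88.3 and 127 CPM. Gja1 went through 139, 236, 261, 320 and 348 CPM. Gjc1 went the other way, through 104, 85.0, 81.5, 80.8 and 72.0 CPM. eKO replicate 2 was the lowest library for Gja1 in every bin, from 115 CPM in the first to 239.8 CPM in the last.

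**Figure D2:**
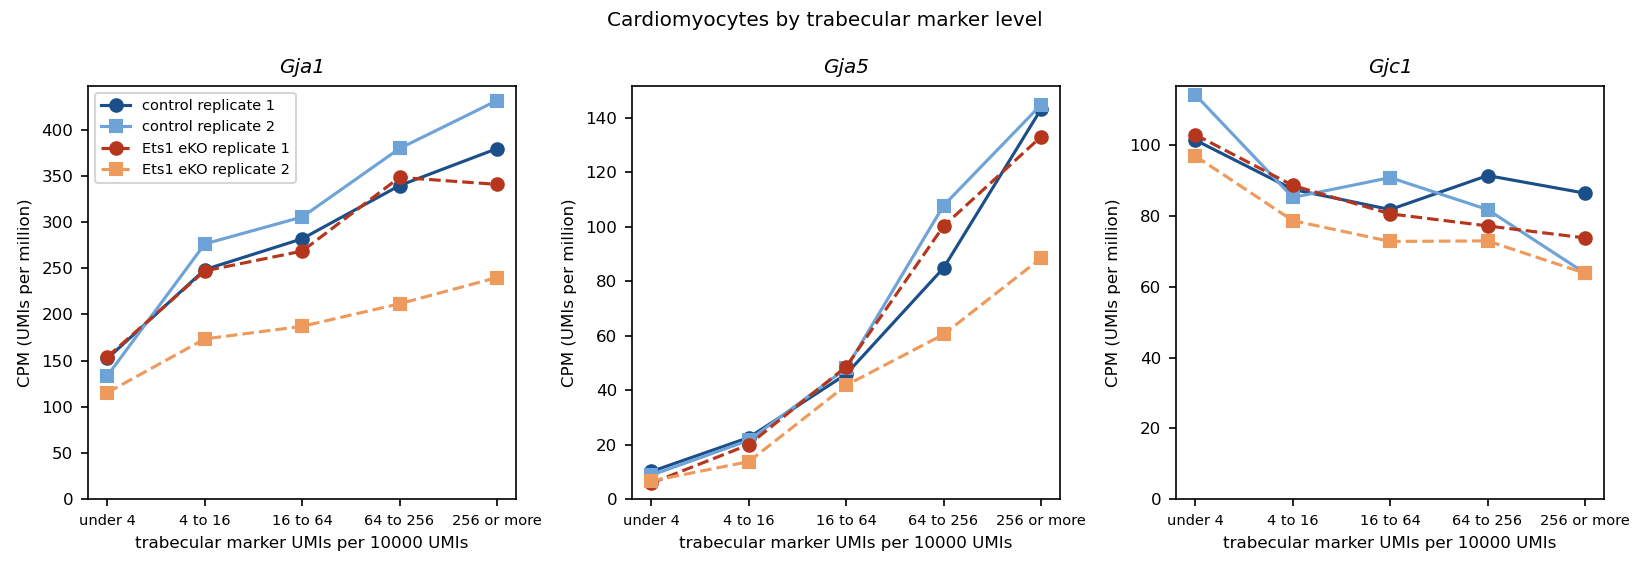
CPM of Gja1, Gja5 and Gjc1 (vertical axes from 0, one scale per gene) in cardiomyocytes grouped by their trabecular marker sum per 10000 UMIs (horizontal axis, 5 bins), one line per library. Mean Gja1 and Gja5 are higher in bins of more trabecular marker, though Gja1 of eKO replicate 1 is slightly lower in the last bin than in the one before, and eKO replicate 2 lies below the other libraries for Gja1.

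Along the compact marker sum the order turned. Over bins of under 1, 1 to 4, 4 to 16, 16 to 64, and 64 or more, mean Gja1 went from 255 through 242, 163 and 92.0 to 61.7 CPM. Gja5 went from 39.9 through 26.2, 15.6 and 11.5 to 7.06 CPM. Gjc1 stayed between 91.0 and 97.2 CPM in the first 4 bins and reached 115 CPM in the last. These bins and those of the trabecular score share cells.

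Loss of Ets1 and the arterial connexin Gja5 in coronary endothelium come first among the eKO comparisons, which ask what the endothelial deletion does in each cell class. Gja5 stood at 47.6, 41.1, 26.6 and 20.3 CPM in coronary endothelium, from 253, 126, 103 and 99 UMIs. Both eKO libraries lay below both controls. The fitted eKO level was 0.553 of control (log2 fold change -0.86, SE 0.18, unadjusted p 0.000518, adjusted p 0.0525 by edgeR), just outside the threshold of 0.05. None of the 4 members was called, where 105 of 11404 genes (0.921%) were. Of the 4 members 1 had an unadjusted p under 0.05, where 1468 of 11404 genes did. DESeq2 called 69 genes here and no member.

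The direction for Gja5 was the same in all 15 alternative settings, and 7 of them put it past the threshold. Among the 7 are fits with a library left out, in which a group has a lone library. In every such fit more genes in all were called than in the main fit. Without eKO replicate 2 the log2 fold change was -0.67 and without eKO replicate 1 it was -1.05. Without control replicate 2 it was -0.95, and without control replicate 1 it was -0.72. Over all 15 settings the adjusted p went up to 0.258.

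The arterial-gated cells gave 412 of the 581 Gja5 UMIs of coronary endothelium. There Gja5 stood at 267, 233, 128 and 113 CPM, from 207, 98, 52 and 55 UMIs. The groups did not overlap. The log2 fold change was -0.99 (SE 0.22, adjusted p 0.0994 by edgeR), and none of the 4 members was called where 16 of 6097 genes (0.262%) were; DESeq2 called 7 genes and no member. In the remaining coronary cells Gja5 stood at 10.1, 10.6, 14.7 and 10.0 CPM, with groups that overlapped.

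With the replicate number as a block the arterial value passed the threshold (log2 fold change -0.97, adjusted p 0.0263 by edgeR). The labels do not say that equal numbers pair libraries, and the block called 49 of 6097 genes, against 16 without it. The log2 fold change was -1.10 without eKO 1, -1.07 without control 2, -0.87 without eKO 2 and -0.88 without control 1. The direction was the same in all 17 settings, with adjusted p from 0.00918 to 0.880. A call came in 6 of them, some with a library left out. The cells are few. The 8 cardiomyocyte markers summed to 388, 223, 360 and 1078 CPM in these cells, with Actc1 the most abundant; they were highest in eKO 2, and their part in the result was not tested.

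Across the arterial score mean Gja5 and Gja4 were higher in bins of more arterial marker. In coronary cells with 0, over 0 to 4, 4 to 8, 8 to 12, and 12 or more arterial marker UMIs per 10000, mean Gja5 was 0.727, 4.39, 35.3, 130.1 and 279 CPM. Gja4 was 12.8, 25.2, 143, 383 and 813 CPM. The bins held 335, 684, 328, 130 and 81 cells, and the last had 11 cells in control 2 and 14 in eKO 1, so it is thin. Cells of the 0 bin are shallow ones, in which a marker is easily missed.

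Within the same bins of arterial score Gja5 still separated the groups at the upper end. At 8 to 12 the 4 libraries held 145, 198, 83.1 and 95.02 CPM, and at 12 or more 419, 300.0, 258 and 139.8 CPM. In each of these bins the eKO libraries were below the controls. At 4 to 8 they held 35.2, 40.3, 40.9 and 24.7 CPM, and the groups overlapped. At over 0 to 4 the order was reversed, with both eKO libraries above both controls. Gja5 stood there at 1.68, 3.38, 6.46 and 6.04 CPM, from 5, 6, 14 and 16 UMIs. The cells at 8 or more, which are the arterial-gated ones, had medians of 11118.5, 10827, 8280.5 and 5096 UMIs. Depth was thus lower in the eKO libraries, and its part was not tested. These values are a description with no test.

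**Figure D3:**
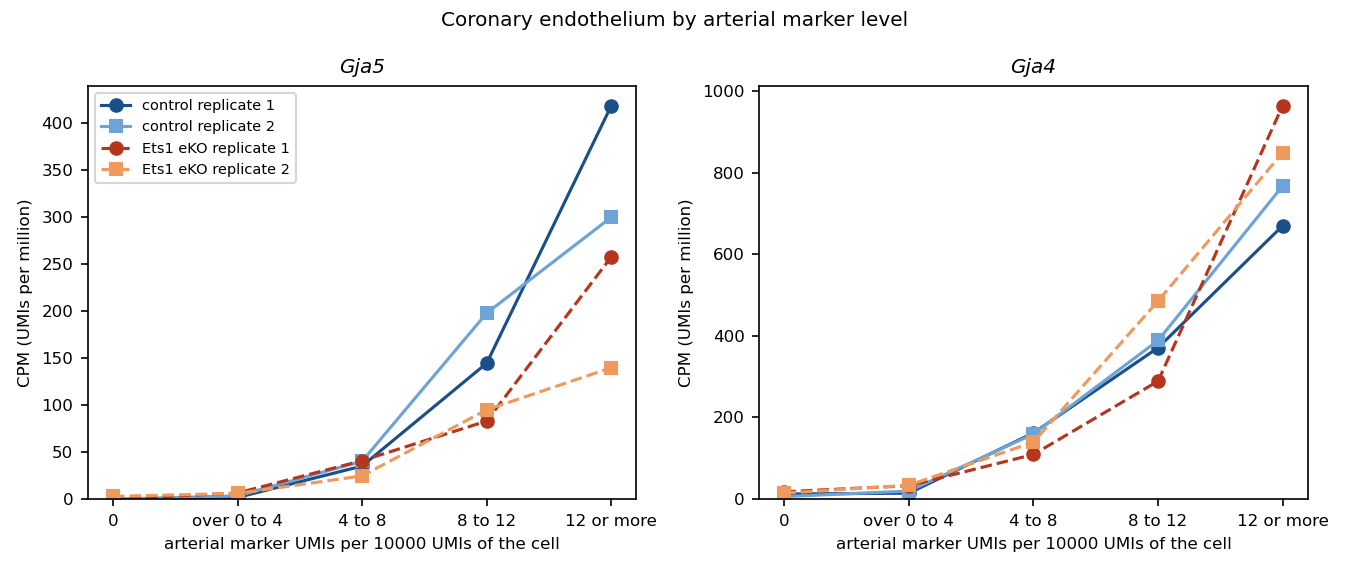
CPM of Gja5 and Gja4 (vertical axes from 0) in coronary endothelial cells grouped by arterial marker UMIs per 10000 (horizontal axis, 5 bins), one line per library. In the upper 2 bins both eKO libraries lie below both controls for Gja5, while for Gja4 at 12 or more they lie above.

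Shares of cells with a Gja5 UMI were also lower in the eKO libraries of coronary endothelium. After thinning each cell to 2000 UMIs, 7.24%, 9.18%, 4.22% and 4.66% of coronary cells had one, a difference of -3.77 points between the group means (two-sided exact permutation p 0.333, the smallest that 2 against 2 libraries allow). In the arterial-gated cells the shares were 32.1%, 40.0%, 19.0% and 17.6%, lower in both eKO libraries. Another draw, of 1000 UMIs from all cells of the gate, did not keep that split: the arterial shares were 21.4%, 12.9%, 15.2% and 14.1%, with control 2 the lowest, and the difference of the means went from -17.7 to -2.51 points. Without thinning the group means were 14.9% and 10.9% in coronary cells and 65.1% and 39.9% in the arterial-gated ones, over unequal depths. Thinning left out 36 control and 76 eKO coronary cells.

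Immune cells give the background from free RNA. No Gja5 UMI was seen in 161, 87, 185 and 256 thinned immune cells, which allows shares of up to 1.86%, 3.45%, 1.62% and 1.17%. Median depth was 11991, 12001, 9991 and 6615 UMIs in the coronary and 6359, 6920, 6323 and 3978 UMIs in the immune cells that were thinned. The coronary shares were above these limits in each library. Intervals and limits cover counting error only.

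**Figure D4:**
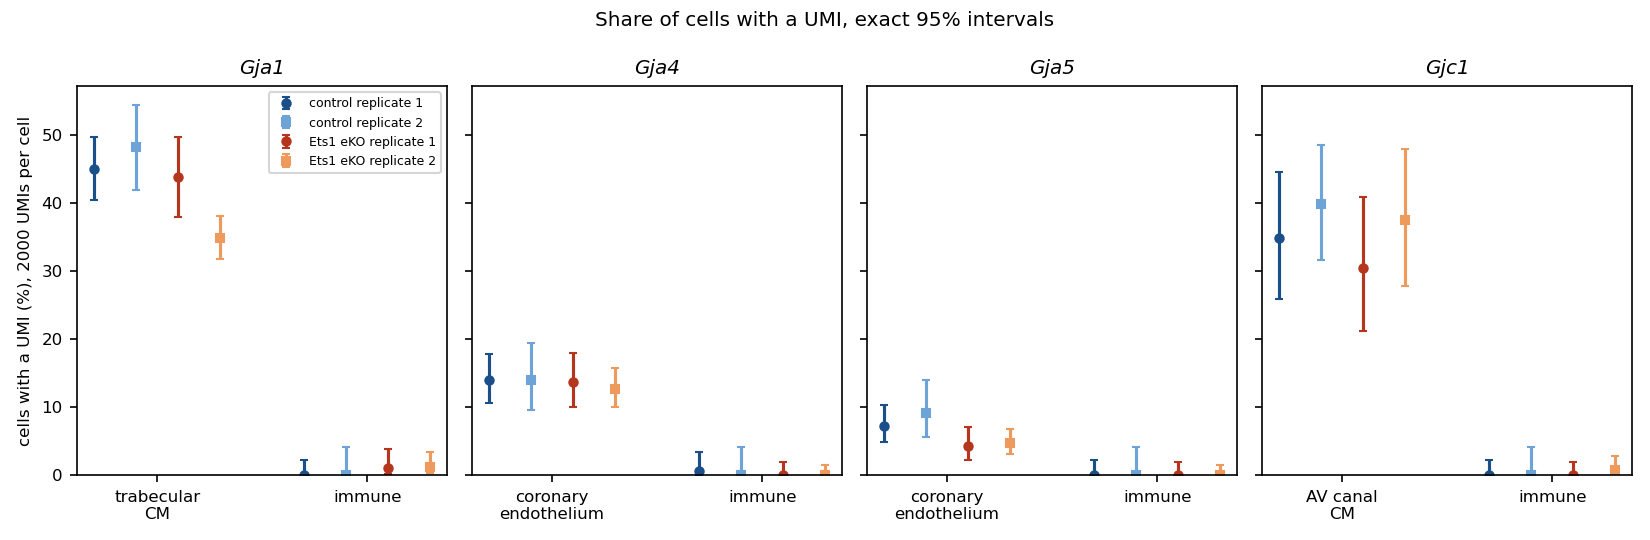
Percent of cells with at least 1 UMI of each connexin after thinning to 2000 UMIs a cell (vertical axis), in the class where it is described and in immune cells, per library; bars are exact 95% binomial intervals. Gja5 shares in coronary endothelium are lower in both eKO libraries, and immune shares lie at or near 0.

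Gja5 in the other classes showed no call. In endocardium, where it was low, it stood at 3.84, 2.73, 1.75 and 2.06 CPM (log2 fold change -0.72, SE 0.36, adjusted p 0.296 by edgeR). Both eKO libraries were lower there too, but without cycling cells the log2 fold change was 0.0153; 4 members were tested and none called, where 253 of 13387 genes (1.89%) were. DESeq2 called no member of these, and no member had an unadjusted p under 0.05. In compact cardiomyocytes it stood at 12.5, 10.0, 7.80 and 9.38 CPM (-0.31, SE 0.19, adjusted p 0.601 by edgeR), lower in both eKO libraries and not called; it was -0.12 without control 1, -0.45 without control 2, -0.18 without eKO 1 and -0.47 without eKO 2. Here edgeR called 0 of 13829 genes (0%), 1177 stood under 0.05 before adjustment, and DESeq2 called 5. The difference between the Gja5 effects in coronary endothelium and endocardium was -0.16 (SE 0.35, adjusted p 0.923 by edgeR's interaction test; without cycling cells -0.88, adjusted p 0.507; without eKO 2 0.20).

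In trabecular cardiomyocytes, its site of highest level after the arterial-gated cells, Gja5 stood at 94.7, 116, 111 and 69.4 CPM. eKO replicate 2 was low and eKO replicate 1 lay among the controls. The log2 fold change was -0.14 (SE 0.20, adjusted p 0.749 by edgeR), and none of the 3 members tested was called, where 11 of 11790 genes (0.0933%) were. Without eKO 2 it was 0.14, without control 2 it was 0.02 and without eKO 1 it was -0.43, so its direction rests on single libraries. The difference between the trabecular and compact effects did not pass the interaction test (0.21, SE 0.21, adjusted p 0.861 by edgeR), and its sign turned without control 1 (-0.18) or eKO 1 (-0.25); it was 0.46 without control 2 and 0.68 without eKO 2.

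**Figure D5:**
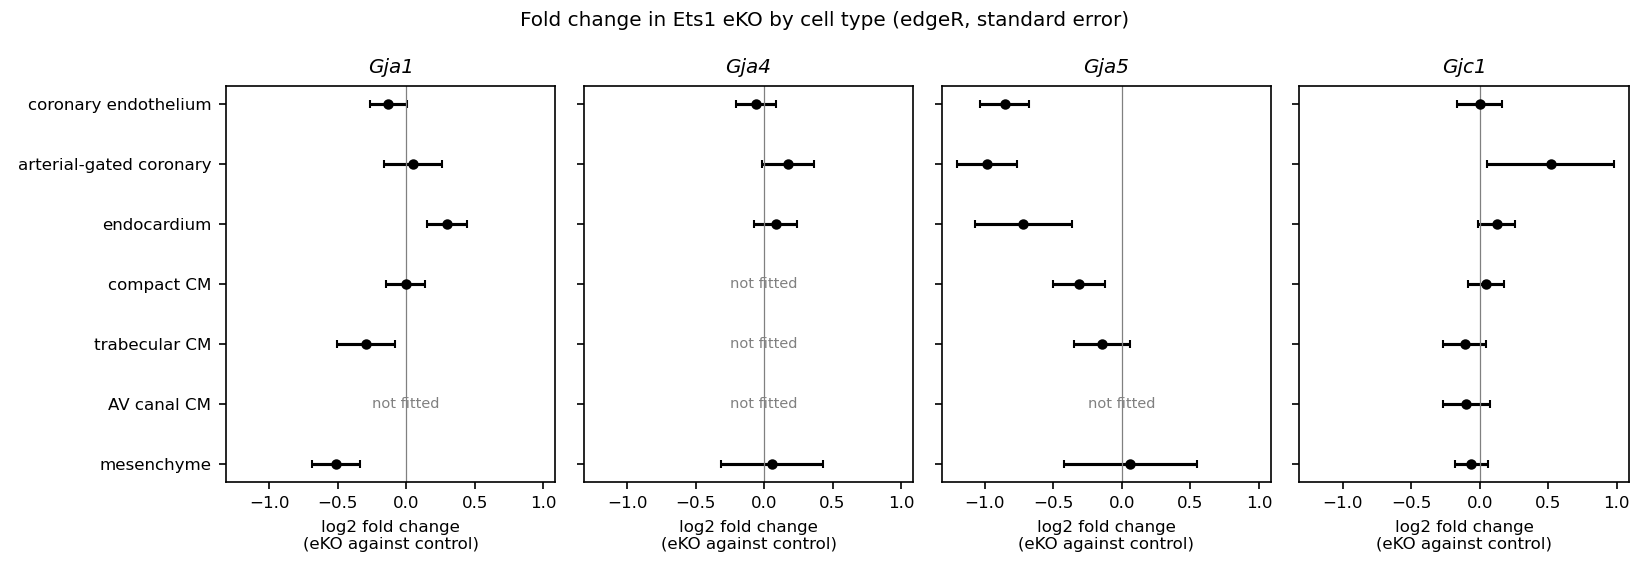
Log2 fold change of eKO against control with its standard error (horizontal axis, edgeR) for each connexin in 7 cell classes; "not fitted" marks genes too low to test. Gja5 lies farthest below 0 in coronary and arterial-gated endothelium, and no member passed the threshold in any class.

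Gja4, the connexin of both endothelial classes, did not follow Gja5. In coronary endothelium it stood at 118, 112, 94.4 and 114 CPM, and the groups overlapped. In arterial-gated cells it stood at 504, 517, 463 and 629 CPM, with the eKO libraries on either side of the controls. The log2 fold changes were -0.06 (SE 0.15, adjusted p 0.892 by edgeR) and 0.17 (SE 0.19, adjusted p 0.823). Leaving out eKO 1 in the first (0.07) or eKO 2 in the second (-0.04) turned the sign.

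In endocardium Gja4 stood at 75.1, 82.9, 69.0 and 90.7 CPM. The groups overlapped, eKO 2 being the highest and eKO 1 the lowest (log2 fold change 0.08, SE 0.16, adjusted p 0.808 by edgeR; without eKO 2 -0.15, adjusted p 0.660). Thinned shares in coronary cells were 13.9%, 14.0%, 13.6% and 12.7%, against 0.621%, 0%, 0% and 0% in immune cells. Mesenchyme, with 1.46, 1.52, 1.19 and 1.77 CPM, was near the 0.913, 0, 0 and 0.827 CPM of immune cells.

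Gja1, the channel of working muscle, stood at 350, 392, 348 and 222 CPM in trabecular cardiomyocytes. eKO 2 was far below the other 3 libraries, and eKO 1 lay just below the controls. The log2 fold change was -0.29 (SE 0.21, adjusted p 0.504 by edgeR). It was -0.03 without eKO 2 and -0.58 without eKO 1, each with a lone eKO library. Thinned shares were 45.1%, 48.2%, 43.9% and 34.95%, again lowest in eKO 2 at an equal depth per cell. The endothelial markers, as a sign of RNA from other cells, summed to 24.8, 23.2, 31.4 and 68.8 CPM in trabecular cells with Egfl7 the most abundant, and their part in the result was not tested.

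In compact cardiomyocytes Gja1 stood at 93.3, 81.6, 90.3 and 72.7 CPM, and the groups overlapped (log2 fold change -0.01, SE 0.14, adjusted p 0.992 by edgeR). Leaving out control 1 (0.10) or eKO 2 (0.13) turned the sign. The trabecular effect lay below the compact one by 0.28 on the log2 scale (difference -0.28, SE 0.11, unadjusted p 0.0184, adjusted p 0.515 by edgeR's interaction test). This difference was -0.44 without eKO 1, -0.50 without control 1, -0.10 without control 2, -0.11 without eKO 2 and -0.06 without cycling cells. Of 13314 genes tested for that difference 0.33% were called, and none of the 3 members.

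In the endothelial classes Gja1 was not called. Coronary endothelium held 118, 116, 104 and 98.2 CPM, lower in both eKO libraries by no more than the error (log2 fold change -0.13, SE 0.13, adjusted p 0.706 by edgeR). Endocardium held 35.9, 30.4, 42.4 and 35.9 CPM, with eKO 1 the highest and eKO 2 just above control 1 (0.30, SE 0.15, adjusted p 0.287 by edgeR; higher in eKO in all 15 alternative settings). The difference between these effects was -0.44 (SE 0.13, unadjusted p 0.00216, adjusted p 0.0966 by edgeR's interaction test) and did not pass. Of 13341 genes tested for it 1.54% were called, and none of the 4 members. In arterial-gated cells Gja1 stood at 181, 202, 197 and 176 CPM, and the groups overlapped.

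In mesenchyme Gja1 stood at 27.6, 40.6, 22.3 and 22.3 CPM. Both eKO libraries were lower than both controls, and control 2 was the highest (log2 fold change -0.51, SE 0.18, adjusted p 0.377 by edgeR). Among the settings tried the log2 fold change was -0.73 without control 1, -0.25 without control 2 and -0.86 without cycling cells. None of the 4 members was called in mesenchyme, where 7 of 14770 genes (0.0474%) were called by edgeR and 100 by DESeq2.

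Gjc1, the slow channel, had no separation of the groups in its main site. Canal cardiomyocytes held 223, 246, 189.5 and 244 CPM, with eKO 1 the lowest and eKO 2 among the controls (log2 fold change -0.10, SE 0.17, adjusted p 0.878 by edgeR; without eKO 1 0.07, adjusted p 0.918). It was the 1 member that could be tested there, where 26 of 9068 genes (0.287%) were called. Thinned shares were 34.9%, 39.9%, 30.4% and 37.5% in these cells and 0%, 0%, 0% and 0.781% in immune cells.

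In most other classes Gjc1 also overlapped between groups. Mesenchyme held 123, 139.8, 112 and 123 CPM (log2 fold change -0.06, SE 0.12), compact cardiomyocytes 106, 99.7, 108 and 90.3 CPM (0.05, SE 0.13) and coronary endothelium 54.7, 69.8, 52.0 and 63.9 CPM (-0.00, SE 0.17). Trabecular cardiomyocytes held 90.6, 78.7, 76.8 and 70.8 CPM, with both eKO libraries lower than both controls by less than the error (-0.11, SE 0.16, adjusted p 0.749 by edgeR). The adjusted p-values of the first 3 lay at 0.865, 0.915 and 0.998. In arterial-gated cells, with 28.4, 42.7, 17.3 and 71.7 CPM, the eKO libraries were the lowest and the highest (0.52, SE 0.46, adjusted p 0.772 by edgeR; without eKO 2 -0.87, adjusted p 0.750).

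A list of 18 held partners of connexins at the intercalated disc, the junction between muscle cells. Of these, all tested, 10 were higher and 3 lower in trabecular than in compact cardiomyocytes by edgeR, where 49.6% of all genes were called (median log2 difference 0.39, against 0.01 over all genes). The desmosomal Dsc2 was 1.49 higher (SE 0.10) and Dsp 0.82 (SE 0.05), and the caveolar Cav3 0.93 (SE 0.08). N-cadherin Cdh2 (-0.58, SE 0.05) and vinculin Vcl (-0.25, SE 0.06) were lower, the latter no longer called without cycling cells (-0.08).

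In canal cells 7 of the 18 were higher and 6 lower than in compact cells, where 47.2% of all genes were called (median 0.07 against 0.01), with Cav1 4.53 higher (SE 0.20) and Nrap (-1.01, SE 0.15) lower. Between the endothelia 7 of 13 tested were higher in coronary cells, among them Cav1 (2.41, SE 0.05) and Tjp1 (0.89, SE 0.06), whose product binds connexins. The other 5 called were lower, with Dsg2 (-4.83, SE 0.19) and Pkp2 (-2.54, SE 0.14) among them. The median was 0.15, against -0.03 over all genes, of which 65.7% were called.

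None of these partners was called between eKO and control in any class by edgeR. In trabecular cardiomyocytes 5 of 18 had an unadjusted p under 0.05, where 1726 of 11790 genes did, and the median log2 fold change was -0.25, against 0.00 over all genes. In endocardium 6 of 16 did (2647 of 13387 genes) and in the canal 5 of 16 (1033 of 9068). There were 2 of 12 in coronary endothelium (1468 of 11404), 0 of 7 in arterial-gated cells (623 of 6097), 2 of 18 in compact cells (1177 of 13829) and 3 of 17 in mesenchyme (1590 of 14770). In trabecular cells the most abundant was alpha-T-catenin Ctnna3 at 2600, 2860, 2106 and 1691 CPM (-0.43, SE 0.21, adjusted p 0.348 by edgeR). Both eKO libraries lay below both controls. Cdh2 did not pass (-0.41, SE 0.20, adjusted p 0.350 by edgeR). Cdh2 and Ctnna3 were -0.54 each without eKO 1, and Dsp (-0.09, SE 0.22) turned to 0.19 without eKO 2.

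Factors known to act on connexin genes formed a list of 18. Of 14 tested, 5 were higher and 7 lower in trabecular than in compact cardiomyocytes, against 49.6% of all genes called (median -0.12, against 0.01 over all genes), among them Irx3, a factor of the fast conduction network, at 3.19 higher (SE 0.10), and Tbx5 at 1.64 higher (SE 0.07). Id2 (-1.76, SE 0.08) and Tbx20 (-0.91, SE 0.05) were lower. In canal cells 7 were higher and 3 lower of 14, against 47.2% of all genes called (median 0.31 against 0.01), Tbx5 (2.77, SE 0.13) and Id2 (1.33, SE 0.09) being higher and Tbx18 (-4.15, SE 0.43) and Hopx (-1.07, SE 0.10) lower. Tbx2, Tbx3 and Hey2 defined classes and are not counted as findings, though the counts include them.

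In coronary endothelium against endocardium 4 factors were higher and 11 lower of 16, against 65.7% of all genes called (median -0.81, against -0.03). Sox18, a factor of endothelial differentiation, was 2.27 higher (SE 0.17), and Klf2 (-0.94, SE 0.07), the flow-responsive factor, Id2 (-3.05, SE 0.11) and Gata4 (-3.01, SE 0.16) were lower.

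Of these factors, edgeR called Sox18 alone between eKO and control, as 1 of 15 tested in coronary endothelium (0.921% of all genes called) and 1 of 16 in endocardium (1.89%). In each class 3 had an unadjusted p under 0.05, where 1468 of 11404 and 2647 of 13387 genes did. It stood at 120, 91.0, 43.9 and 61.5 CPM in coronary endothelium and at 37.8, 27.7, 6.31 and 9.43 CPM in endocardium. In each class the eKO libraries were below the controls. Sox18 fell in coronary endothelium (log2 fold change -0.92, SE 0.19, adjusted p 0.0474 by edgeR) and in endocardium (-1.98, SE 0.23, adjusted p 0.00373), the first call being lost with the replicate block (-0.92, adjusted p 0.0910), without control 1 (-0.69, adjusted p 0.141), with looser gates (-0.91, adjusted p 0.109) and without cycling cells (-0.90, adjusted p 0.149). Klf2 (-0.15, SE 0.16), Notch1 (-0.30, SE 0.14) and Sox17 (0.08, SE 0.16), the 3 most abundant factors in coronary endothelium, did not pass. The list medians were 0.08 in coronary endothelium and -0.13 in endocardium, against 0.01 in both over all genes.

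Arterial identity genes, a list of 15 that includes the 7 arterial markers, were mostly coronary. Of 14 tested, 11 were higher and 3 lower in coronary endothelium than in endocardium, against 65.7% of all genes called (median 2.07 against -0.03). The chemokine Cxcl12 was 4.66 higher (SE 0.25), and the Notch ligands Jag2 and Dll4 were 4.58 (SE 0.20) and 2.22 (SE 0.07) higher. Ephrin B2, Efnb2, was 0.86 higher (SE 0.05), and the receptor Notch1 was lower (-0.53, SE 0.06).

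Between eKO and control none of 14 arterial genes was called in coronary endothelium by edgeR, 4 had an unadjusted p under 0.05 (1468 of 11404 genes did), and the median was -0.32, against 0.01 over all genes. Efnb2 stood at 255, 277, 172 and 166 CPM there. Both eKO libraries were lower (log2 fold change -0.57, SE 0.14, adjusted p 0.0982 by edgeR), and the value passed without eKO 1 (-0.58, adjusted p 0.00689) or without eKO 2 (-0.55, adjusted p 0.0197). The other abundant genes of the list, Nrp1 (-0.16, SE 0.15) and Notch1 (-0.30, SE 0.14), did not pass. In arterial-gated cells none of 14 was called, 4 had an unadjusted p under 0.05 (623 of 6097 genes did), and the median was -0.26; the list's 7 markers gated these cells, so this is a description.

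In endocardium 3 of the 14 fell and none rose, where 1.89% of all genes were called. There 6 of 14 had an unadjusted p under 0.05 (2647 of 13387 genes did), and the median was -0.42, against 0.01. Efnb2 fell from 171 and 163 CPM in the controls to 109 and 105 CPM (log2 fold change -0.58, SE 0.12, adjusted p 0.0405 by edgeR). The netrin receptor Unc5b (-1.17, SE 0.22, adjusted p 0.0325) and Acvrl1 (-1.42, SE 0.26, adjusted p 0.0315), a receptor of the BMP pathway, were low there and fell too. Their calls, but not their direction, were lost with looser gates (-1.13 and -1.32, adjusted p 0.0508 and 0.0600), with the UMI ceiling (-0.95 and -1.31, adjusted p 0.136 and 0.0522) and without cycling cells (-0.81 and -1.33, adjusted p 0.173 and 0.0513). Without control 1 (-0.56, adjusted p 0.186) or control 2 (-0.58, adjusted p 0.121) Efnb2 did not pass, nor with the replicate block (-0.58, adjusted p 0.0503), looser gates (-0.56, adjusted p 0.0792), the UMI ceiling (-0.55, adjusted p 0.0563) or cycling cells left out (-0.54, adjusted p 0.0677). In canal cardiomyocytes Cxcl12 fell, from 55.5 and 87.1 CPM to 20.7 and 16.4 CPM (-1.90, SE 0.31, adjusted p 0.0114 by edgeR; without eKO 1 -2.13, adjusted p 0.0688; with stricter gates -2.47, adjusted p 0.198). All these comparisons share the same 4 libraries.

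Among 19 other connexins and pannexins, 6 reached a mean of 1 CPM in a class and 3 reached 10, while 4 (Gjb1, Gjb2, Gjb6 and Gje1) had no UMI in any. Of the 6, Gja10 (4 UMIs over all classes) and Gjb5 (15 UMIs) were near the floor. Gja10 had its mean of 1.13 CPM in smooth muscle marker-high cells from libraries between 0 and 4.51 CPM. Gja3, known from the lens, was highest in canal cardiomyocytes (45.1 ± 5.14 CPM), above trabecular (23.6) and compact cells (12.9). It was called in both contrasts by edgeR, 1.61 above compact in the canal (SE 0.17, adjusted p 3.37e-07) and 0.97 in trabecular cells (SE 0.11, adjusted p 3.75e-08). Panx1, a channel gene of the related pannexins, was highest in mesenchyme (34.0 ± 4.92 CPM) and was lower in coronary endothelium than in endocardium (-0.92, SE 0.14, adjusted p 0.000134). Panx2 was highest in canal cells (18.8 ± 4.09 CPM) and 1.90 higher than in compact cells (SE 0.28, adjusted p 1.63e-05 by edgeR). None was called between eKO and control in any class, and none had an unadjusted p under 0.05.

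Likeness of pattern was measured as Pearson's r of log2(CPM + 1) over 36 points, 9 classes in 4 libraries, among 9963 genes. The points of a class come from the same libraries, so r is a description. Gja1 and Gja5 were each other's most alike gene (0.785). Among the next were Fam83d (0.743), 1700025G04Rik (0.732), Dgkk (0.732) and Mest (0.726) for Gja1, and Ntn1 (0.772), Lrrc3b (0.760) and 1700025G04Rik (0.756) for Gja5. Gja4 was most like Egfl7 (0.965), Sox7 (0.961), Adgrl4 (0.959), Mall (0.957) and Cd93 (0.957), of which Egfl7 and Cd93 were endothelial markers of the classes. Gjc1 was most like Yap1 (0.970), Grb10 (0.964), Pakap (0.954), Rbfox2 (0.952) and Gnai1 (0.951). Gja4 and Gja5 were much less alike (0.237), as were Gja1 and Gjc1 (0.227).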

How the data were processed

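The authors processed the reads with Cell Ranger 7.1.0 on mm10 and analysed them with Seurat 4.3.0, and they deposited a filtered matrix of UMI counts per gene and cell for each library, which is what was used here; the files hold no cell annotation. A cell was kept if it had 1000 or more UMIs and between 200 and 7000 genes, with ceilings of 20% for mitochondrial, 35% for ribosomal and 2% for haemoglobin UMIs. No doublet caller was run; cells with markers of 2 lineages (2114) were left out, and a ceiling of 2.5 times the median UMIs was an alternative. Marker sums per 10000 UMIs set the lineages (cardiomyocyte 100, endothelial 10, mesenchyme 20, epicardial 10, immune 16) and classes (coronary 20, endocardium 8, compact 16, trabecular 64, canal 8, arterial 8, smooth muscle 64). The marker lists held no connexin. The thresholds were set after viewing the data, and connexin values were in view when the arterial one was settled on cell numbers.

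UMIs were summed per class and library and fitted with edgeR 4.0.16 (TMM, low counts filtered, quasi-likelihood test) in R 4.3.3, adjusted by Benjamini-Hochberg over all genes tested and called at an adjusted p of at most 0.05. Classes were compared with the library as a block, and the eKO effect between classes as an interaction. DESeq2 1.42.0 was an alternative. Fits need at least 10 cells in each library, and the steps were tested on simulated data. Shares used cells thinned to 2000 UMIs, exact 95% binomial intervals and a limit of 3 counts for a share of 0, with Python 3.11.15, numpy 2.4.6, pandas 2.3.3, scipy 1.17.1 and matplotlib 3.10.9.

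Named genes are the 4 connexins, Ets1, the listed genes past the threshold in a comparison (examples where many pass) or, where fewer than 3 pass, the 3 with the highest CPM, and genes from the 5 most like each connexin among those with a mean of at least 20 CPM in a class. The members and lists were chosen with earlier results of these data known.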

Additional observations from a re-analysis of the deposited data

Results flagged for a closer look

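The eKO effects on 2 listed genes differed between coronary endothelium and endocardium by the interaction test of edgeR. They were 1 of 18 factors and 1 of 14 arterial identity genes tested, with 0 of 16 connexin partners. Of all 13341 genes tested 1.54% were called. For Sox18 the coronary effect lay 1.05 above the endocardial one on the log2 scale (SE 0.16, adjusted p 0.000726), the gene having fallen in both classes and further in endocardium. It was called in all 13 alternative settings. For Unc5b the difference was 0.73 (SE 0.18, adjusted p 0.0405); this call was lost in 7 of 13 settings, among them DESeq2 (0.76, adjusted p 0.473), each library left out (0.70 to 0.80) and no cycling cells (0.34, adjusted p 0.765). Unc5b stood at 139.9, 139.9, 109.9 and 89.6 CPM in coronary endothelium and at 13.1, 13.4, 6.43 and 4.91 CPM in endocardium. The cause of either difference was not tested.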

How the results depend on the processing

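The 40 member fold changes were computed under 574 combinations with an alternative. Of these values 517 kept direction and side of the threshold, 19 passed it, 0 lost it and 38 changed sign; 128 of 130 values of the class contrasts were kept. For 48 fold changes of named list genes, 614 of 652 values were kept, 26 lost the threshold, 6 passed it and 6 changed sign. Where a library is left out, the lone sample of its group is taken to vary like the others. The cause of each change given here was not tested.

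Numbers of genes called depended on the setting. DESeq2's Wald test called 69 genes in coronary endothelium (edgeR 105), 7 in arterial-gated cells (16), 5 in compact (0) and 17 in canal cardiomyocytes (26), 100 in mesenchyme (7), 50 for the coronary against endocardium effect (206) and 3 for the trabecular against compact effect (44). With no low-count filter the numbers in these comparisons were 389, 67, 116, 151, 0, 350 and 81, with 1073 in endocardium (253) and 198 in trabecular cells (11). Looser gates gave 30 in coronary endothelium, 147 in endocardium and 16 in the canal. Stricter gates gave 4 in compact, 4 in trabecular and 8 in canal cells, and 1 for the trabecular against compact effect. Without cycling cells there were 36 in coronary endothelium, 5 in compact and 24 in trabecular cells and 26 for the trabecular against compact effect, which had 26 with the stricter cell filter and 22 with the UMI ceiling. The ceiling gave 3 in compact and 3 in trabecular cells, and total count scaling 5 and 53. Leaving out each library in turn gave 158 to 940 in coronary endothelium, 39 to 98 in arterial-gated cells, 370 to 1667 in endocardium, 8 to 1238 in compact, 34 to 2142 in trabecular and 23 to 93 in canal cells, 0 to 291 in mesenchyme and 27 to 93 for the trabecular against compact effect.

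Gja5 in coronary endothelium (-0.86, log2) passed with total count scaling (-0.94), no low-count filter (-0.86) and the stricter cell filter (-0.91), and ranged from -1.05 to -0.67 with a library left out. In arterial-gated cells (-0.99) it passed with no low-count filter (-1.01), ranged from -1.10 to -0.87 with a library left out and was -0.78 with the UMI ceiling. Gjc1 between the endothelia (-0.05) passed with total count scaling (-0.25) and without cycling cells (-0.37).

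Signs turned in several settings. With total count scaling they did for Gja1 in arterial-gated cells (-0.034), Gjc1 in compact cells (-0.0538), and Gja4 (-0.0372) and Gja5 (-0.0315) in mesenchyme; Sox17 in coronary endothelium went to -0.0054. Coronary Gjc1 turned with DESeq2 size factors (0.0006), stricter gates (0.086), the UMI ceiling (0.0251) and no cycling cells (0.55), which also turned its coronary against endocardium effect (0.39), endocardial Gja5 (0.0153) and coronary Sox17 (-0.10). Stricter gates turned coronary Gja4 (0.0524) and canal Gjc1 (0.0031), and looser gates mesenchymal Gja5 (-0.11).

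With a library left out, values ran in coronary endothelium from -0.21 to 0.0711 for Gja4, -0.17 to 0.17 for Gjc1, -0.34 to 0.0117 for Klf2 and -0.0893 to 0.29 for Sox17. In arterial-gated cells they ran from -0.0525 to 0.16 for Gja1, -0.0381 to 0.36 for Gja4 and -0.87 to 1.13 for Gjc1, and in endocardium from -0.15 to 0.29 for Gja4. In compact cells Gja1 ran from -0.16 to 0.13 and Gjc1 from -0.0787 to 0.16. Trabecular Gja1 ran from -0.58 to -0.0325, Gja5 from -0.43 to 0.14 and Dsp from -0.42 to 0.19, and canal Gjc1 from -0.28 to 0.0681. In mesenchyme Gja1 ran from -0.73 to -0.25, Gja4 from -0.22 to 0.35, Gja5 from -0.26 to 0.39 and Gjc1 from -0.13 to 0.0105. Outside these ranges, mesenchymal Gja1 was -0.86 without cycling cells and Gja4 was 0.75 with looser gates. The coronary against endocardium effect on Gja5 ran from -0.43 to 0.20, and the trabecular against compact effects on Gja1, Gja5 and Ets1 from -0.50 to -0.10, -0.25 to 0.68 and -0.12 to 0.67.

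Differences in shares (eKO minus control, points) turned sign when cells were thinned to 1000 UMIs for Gja1 (-4.92) and Gja4 (-2.68) in arterial-gated cells, Gja5 in trabecular cells (1.53) and Gjc1 in coronary endothelium (1.81), endocardium (0.0411), compact (0.262) and canal cells (5.59). With all UMIs, over unequal depths, they turned for Gja1 (-17.3), Gja4 (-13.1) and Gjc1 (-5.09) in arterial-gated cells and for Gja4 in endocardium (-4.67). With a library left out they ran from -2.30 to 0.855 for coronary Gja1, -0.108 to 2.67 for endocardial Gja4 and -4.82 to 2.21 for trabecular Gja5. For Gjc1 they ran from -5.02 to 0.572 in coronary endothelium, -1.25 to 1.23 in endocardium, -1.53 to 0.243 in compact, -6.92 to 0.141 in canal cells and -1.97 to 1.18 in mesenchyme.

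The libraries share a replicate number and nothing that the labels say pairs them. Deviations of same-numbered libraries correlated at -0.102 in coronary endothelium, -0.126 in trabecular cells and between -0.0929 and -0.0161 in the other classes. With the replicate block 49 genes were called in arterial-gated cells, 401 in endocardium, 48 in compact and 69 in trabecular cells and 185 in mesenchyme, and of the members Gja5 in arterial-gated cells passed (-0.97); the block changed no other member's call.

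Chosen after seeing the data, the replicate block with crossed numbers called 184 genes in coronary endothelium, 37 in arterial-gated cells, 495 in endocardium, 62 in compact, 480 in trabecular and 213 in canal cells and 188 in mesenchyme; in it coronary Gja5 was -0.86, coronary Gjc1 0.0041 and arterial Gja5 -0.99. Also chosen then were arterial thresholds of 4 (50 of 9230 genes called, Gja5 -0.99 and past the threshold, Gja4 -0.17) and 12 (4 of 3142 genes called). Arterial cells of at least 4000 UMIs (22 of 5716 genes called) and a smooth muscle threshold of 32 (mesenchymal Gja5 -0.0005) were chosen then too. Gja5 kept its direction in each of these arterial settings.

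Total count scaling shifted the median log2 value of all genes by -0.20 for coronary endothelium against endocardium and by 0.20 for canal against compact cells. It moved the split of higher and lower calls from 69 and 36 to 65 and 76 for eKO in coronary endothelium, from 118 and 135 to 118 and 233 in endocardium and from 1 and 10 to 11 and 42 in trabecular cells. Between classes it went from 4201 and 4085 to 3061 and 5715 (coronary, endocardium), from 3187 and 3101 to 2530 and 4075 (trabecular, compact) and from 2723 and 2947 to 4136 and 2055 (canal, compact).

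Stricter gates were not run for arterial-gated cells, where a library would hold fewer than 10 cells, and the replicate block does not apply to the contrasts of classes, which have the library as a block. With 2 libraries a group, exact tests of shares cannot go below 0.333. The arterial-gated cells number 31 to 78 a library, and Gja5 rests on 94 UMIs in endocardium, 41 in mesenchyme and 5 in the canal. Pooled embryos hide differences between litter mates and sexes, and changes in protein or in channel function were not measured.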
